A study of Mus musculus with 15 samples.

Results

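Fibroblast growth factor (FGF) ligands and receptors are 9 of the 24134 mouse gene IDs counted in each table. They were chosen by name as the receptor kinase genes *Fgfr1*, *Fgfr2*, *Fgfr3* and *Fgfr4*, the receptor-like gene *Fgfrl1*, and the ligand genes *Fgf1*, *Fgf2*, *Fgf7* and *Fgf18*. All 9 passed the filter on low counts in both tables. RNA sequencing covered 15 libraries of cultured articular chondrocytes at passage 0, isolated from the knee cartilage of ICR mouse pups aged 4–5 days. In the siRNA set, 3 cultures received control siRNA (siCtrl) and 3 received siRNAs against *Tnks* and *Tnks2* together (siTnks/2), the genes of the 2 tankyrases. In the drug set, 3 cultures each received DMSO, 10 μM XAV939 or 10 μM IWR-1 for 108 h, and both compounds inhibit tankyrase. All groups shared serum-containing medium, and the time between transfection and harvest is not given in the sources used here. The labels call the 3 cultures of a group biological replicates without saying whether animals were pooled. The comparisons ask how these genes respond when tankyrase is depleted or inhibited.

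FGFs are secreted signals that bring receptor tyrosine kinases together at the cell surface, with heparan sulfate or a Klotho protein as co-receptor, and the receptors pass the signal on through the RAS-ERK relay and other routes. In cartilage FGFR3 is the receptor best known for restraining the growth of chondrocytes, and activating mutations of its gene cause achondroplasia. FGFR1 is the receptor most often linked to catabolic responses of joint chondrocytes, FGF18 is known as an anabolic ligand of cartilage, and FGFRL1 binds FGFs but has no kinase domain.

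The siRNAs define the knockdown groups, so their sense strands are shown, 5′ to 3′, in lower case throughout. The *Tnks* siRNA matches coding sequence in exon 14 of the principal transcript (chr8:34855966-34855984, minus strand, mm10). The *Tnks2* siRNA matches the untranslated part of exon 27 (chr19:36892822-36892840, plus strand). These are the sense strands.
Tnks siRNA: gucugucguugaguaccuu
Tnks2 siRNA: gugucuacuuguaucacau
Both target mRNAs were lower in the siTnks/2 libraries. *Tnks* stood at 7.53, 6.37 and 7.65 CPM per kb in siCtrl replicates 1 to 3 and at 2.13, 1.39 and 2.62 in siTnks/2. *Tnks2* stood at 18.3, 18.5 and 17.8 in siCtrl and at 8.97, 6.93 and 9.45 in siTnks/2. The log2 fold changes were -1.81 (SE 0.22, edgeR quasi-likelihood adjusted p = 0.00569) and -1.10 (SE 0.11, adjusted p = 0.00384). Levels are given as CPM, the counts scaled to library size, divided by the length of the principal transcript in kb, so that genes can be set side by side.

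The upstream sequences of *Fgfr3*, *Fgfrl1* and *Fgf7* are shown because these genes were called with both drugs and differ in base composition; the choice of these 3 followed a look at their values. Each is the 250 bases before the first annotated start in RefSeq (GRCm38.p6), 5′ to 3′ on the gene's strand, with CG dinucleotides in capitals. *Fgfr3* (chr5:33721474-33721723, plus strand) has 66.8% G and C and 19 CG dinucleotides, *Fgfrl1* (chr5:108693979-108694228, plus strand) has 73.6% and 30, and *Fgf7* (chr2:126034408-126034657, plus strand) has 43.6% and 6. Over 32851 mouse promoters the medians were 52.4% and 6.
Fgfr3: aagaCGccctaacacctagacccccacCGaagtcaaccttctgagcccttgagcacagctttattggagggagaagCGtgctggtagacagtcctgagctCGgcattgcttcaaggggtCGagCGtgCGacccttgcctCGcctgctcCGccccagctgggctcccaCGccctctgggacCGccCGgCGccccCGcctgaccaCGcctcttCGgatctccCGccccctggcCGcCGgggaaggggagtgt
Fgfrl1: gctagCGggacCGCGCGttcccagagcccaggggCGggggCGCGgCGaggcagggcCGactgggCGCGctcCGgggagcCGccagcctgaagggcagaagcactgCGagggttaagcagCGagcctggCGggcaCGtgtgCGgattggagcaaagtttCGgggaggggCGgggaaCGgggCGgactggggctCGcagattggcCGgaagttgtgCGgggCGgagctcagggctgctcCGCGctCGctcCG
Fgf7: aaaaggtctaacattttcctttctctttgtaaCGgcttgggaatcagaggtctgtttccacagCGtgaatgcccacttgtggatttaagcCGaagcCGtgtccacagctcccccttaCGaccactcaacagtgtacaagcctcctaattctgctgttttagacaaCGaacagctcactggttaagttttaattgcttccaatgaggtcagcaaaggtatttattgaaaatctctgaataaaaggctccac
*Fgfr3* and *Fgfrl1*, which rose, lie in CG-rich sequence, and *Fgf7*, which fell, does not, but *Fgf18*, which fell with IWR-1, has 77.2% and 37. Promoter windows were read for 7 of the 9 genes. None of them held the SOX core ACAAT, the TCF/LEF letters ATCAAAG or the AP-1 letters TGANTCA on either strand, letters found in 27.7%, 3.2% and 6.7% of the 32851 promoters. The absence says only that these letters are not in these windows.

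*Fgfr3* (chr5:33721724-33737068, plus strand, 18 exons) was higher in every treated library than in every control library of its set. It stood at 134, 148 and 115 CPM per kb in siCtrl replicates 1 to 3 and at 250, 239 and 216 in siTnks/2. In the drug set it stood at 6.69, 9.93 and 8.46 with DMSO, at 31.7, 50.6 and 29.1 with XAV939, and at 113, 119 and 104 with IWR-1. The groups of each set did not overlap, and XAV939 lay between DMSO and IWR-1. *Fgfr3* rose by 0.82 log2 units after knockdown (SE 0.11, adjusted p = 0.00738), a 1.77-fold change. It rose by 2.15 with XAV939 (SE 0.21, adjusted p = 0.000152) and by 3.74 with IWR-1 (SE 0.23, adjusted p = 2.30e-06). Ordered by level, the groups ran DMSO, XAV939, IWR-1, siCtrl and siTnks/2, and the libraries of IWR-1 and siCtrl overlapped in range (104 to 119 and 115 to 148). The 2 sets were made and scaled separately, so an order across them is a description.

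*Fgfr4* encodes the receptor kinase best known as the partner of β-Klotho in liver, and its counts were low, between 30 and 329 per library. It stood at 0.349, 0.350 and 0.284 CPM per kb with DMSO, at 1.01, 1.56 and 0.929 with XAV939, and at 2.88, 2.63 and 2.60 with IWR-1. It rose by 1.82 log2 units with XAV939 (SE 0.22, adjusted p = 0.000466) and by 3.04 with IWR-1 (SE 0.22, adjusted p = 4.85e-06). After knockdown it stood at 0.752, 1.15 and 0.982 against 1.26, 1.87 and 1.24 in siCtrl. These libraries did not overlap, and the log2 fold change of -0.60 (SE 0.23) did not pass the threshold (adjusted p = 0.113), though it did with replicate numbers as a block (adjusted p = 0.0234). The sign of *Fgfr4* thus differed between the siRNA and drug sets, a difference tested as an interaction over both.

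*Fgfrl1*, the receptor without a kinase domain, was higher in all 3 treatments. It stood at 111, 131 and 97.5 CPM per kb in siCtrl and at 164, 230 and 155 in siTnks/2. With DMSO it stood at 23.7, 38.6 and 24.6, with XAV939 at 53.2, 117 and 49.7, and with IWR-1 at 105, 118 and 97.9. No treated library overlapped its controls, and XAV939 replicate 2 stood well above the other XAV939 libraries. The log2 fold change was 0.69 after knockdown (SE 0.18, adjusted p = 0.0385), 1.34 with XAV939 (SE 0.31, adjusted p = 0.0138) and 1.88 with IWR-1 (SE 0.31, adjusted p = 0.000817). The call after knockdown was lost when siCtrl replicate 1, 2 or 3 or siTnks/2 replicate 1 was left out (adjusted p up to 0.127). The XAV939 call was lost without DMSO replicate 1 (adjusted p = 0.0640). With replicate numbers as a block, *Fgfrl1* passed after knockdown (0.68, adjusted p = 0.00280) and with XAV939 (1.28, adjusted p = 0.000134).

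*Fgfr1* fell with both drugs and gave no call after knockdown. It stood at 76.9, 78.2 and 76.4 CPM per kb with DMSO, at 49.3, 68.5 and 53.9 with XAV939, and at 46.3, 51.5 and 49.6 with IWR-1. All treated libraries lay below the DMSO libraries, which spread little. The log2 fold change was -0.43 with XAV939 (SE 0.12, adjusted p = 0.0373) and -0.65 with IWR-1 (SE 0.13, adjusted p = 0.00203). In the siRNA set the levels were 63.9, 77.7 and 61.2 in siCtrl and 70.8, 95.3 and 63.1 in siTnks/2, so the groups overlapped (log2 fold change 0.18, 95% interval -0.22 to 0.57). The XAV939 call was lost in 8 of 9 fits that left out a library (adjusted p up to 0.131). The exception was the fit without XAV939 replicate 2. With replicate numbers as a block, the XAV939 change was -0.44 (SE 0.10, adjusted p = 0.00594).

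*Fgfr2* had the smallest log2 fold change of the receptors in each of the 3 comparisons. It stood at 80.0, 68.3 and 84.1 CPM per kb in siCtrl and 74.5, 62.7 and 79.1 in siTnks/2. With DMSO it stood at 37.2, 38.0 and 45.2, with XAV939 at 33.9, 33.0 and 34.3, and with IWR-1 at 40.6, 38.6 and 41.2. All 3 XAV939 libraries lay below the DMSO libraries, whereas the IWR-1 libraries lay within their range. The 95% interval of the log2 fold change ran from -0.37 to 0.17 after knockdown, from -0.47 to -0.03 with XAV939 and from -0.22 to 0.22 with IWR-1. None of these passed the threshold over all genes, and XAV939 did so only with replicate numbers as a block (adjusted p = 0.0454).

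**Figure D1:**
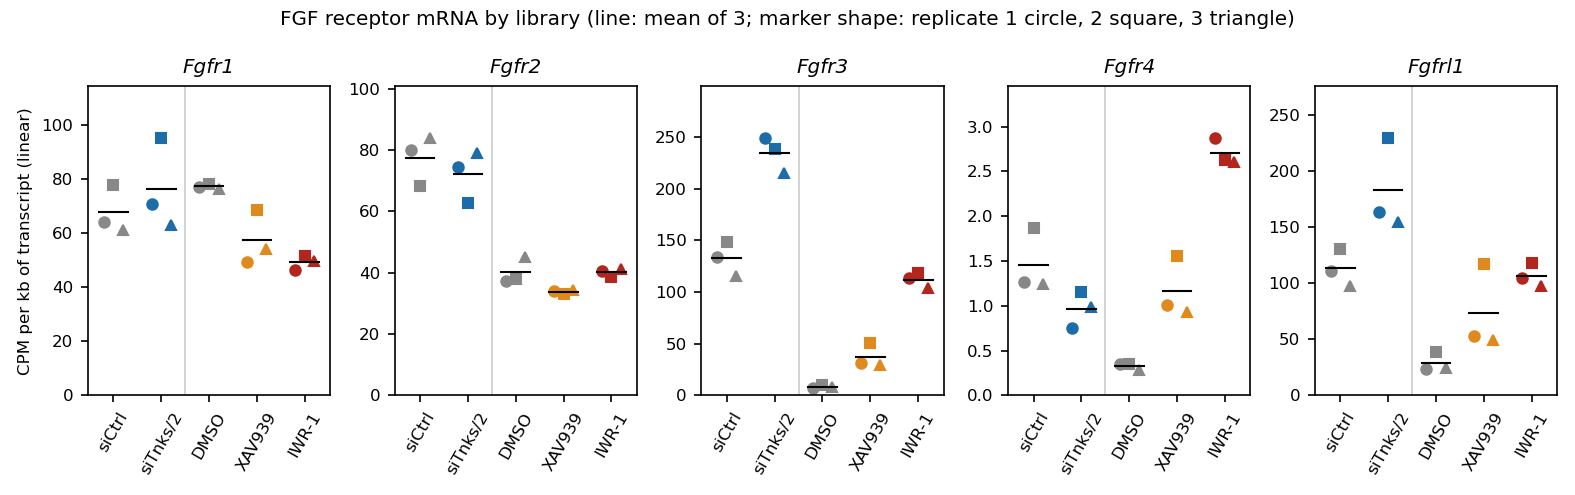
Level of each receptor mRNA in every library on linear axes in CPM per kb, with a line at the mean of 3 libraries and one marker shape per replicate number; a vertical line parts the siRNA set from the drug set. *Fgfr3* runs from 8.36 on average with DMSO to 112 with IWR-1, whereas the *Fgfr2* libraries of the drug set lie between 33.0 and 45.2.

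The *Fgfr3* to *Fgfr1* ratio, counts of one over counts of the other in the same library, does not depend on library size. It was 1.77, 1.61 and 1.59 in siCtrl and 2.98, 2.12 and 2.89 in siTnks/2. With DMSO it was 0.0735, 0.107 and 0.0935, with XAV939 0.543, 0.624 and 0.457, and with IWR-1 2.07, 1.94 and 1.76. The groups of a set did not overlap, and *Fgfr1* outnumbered *Fgfr3* with DMSO and XAV939 but not with IWR-1. The ratio was 1.59-fold higher after knockdown, 5.95-fold higher with XAV939 and 21.3-fold higher with IWR-1 than in its controls. Each direction held in 3 of 3 pairs of libraries with the same number, and the exact two-sided permutation p of each was 0.1, the smallest that 3 against 3 libraries allow.

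**Figure D2:**
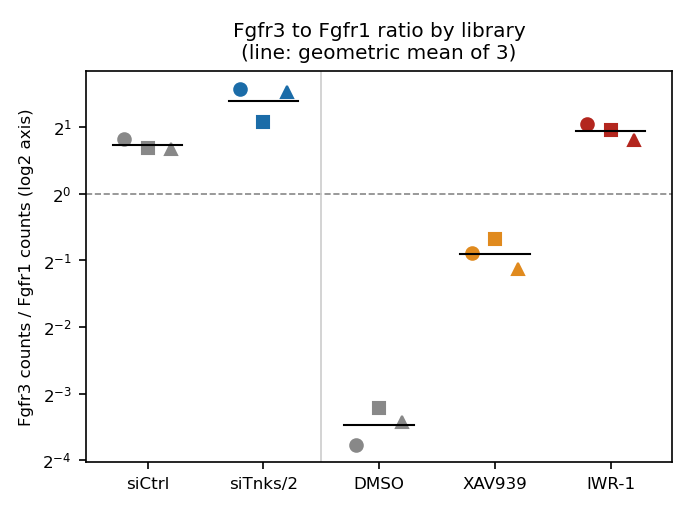
Counts of *Fgfr3* divided by counts of *Fgfr1* in every library on a log2 axis, with a line at the geometric mean of 3 libraries and a dashed line at equal counts. DMSO libraries lie between 0.0735 and 0.107 and IWR-1 libraries between 1.76 and 2.07, with XAV939 between them.

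Among the 4 kinase receptors, *Fgfr3* took up 47.4% ± 3.06 (SD, n = 3) of the summed level per kb in siCtrl and 61.1% ± 1.76 in siTnks/2. In the drug set its share went from 6.62% ± 1.17 with DMSO to 28.3% ± 4.23 with XAV939 and 54.8% ± 1.96 with IWR-1. *Fgfr1* went the other way, from 61.3% ± 2.48 with DMSO to 44.2% ± 1.55 and 24.1% ± 1.22. The summed level ran from 121 to 130 CPM per kb over the DMSO libraries, 116 to 154 over XAV939 and 197 to 211 over IWR-1. XAV939 thus overlapped DMSO, and the IWR-1 libraries lay above both. Dividing by all annotated exon bases instead of the principal transcript raised the *Fgfr3* shares to 8.60%, 34.4% and 62.1% with DMSO, XAV939 and IWR-1.

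**Figure D3:**
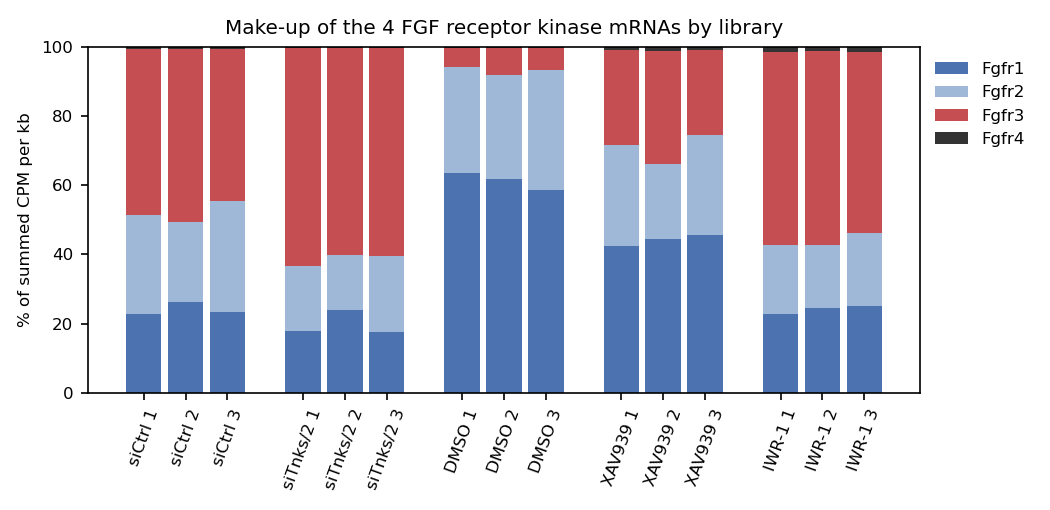
Share of *Fgfr1*, *Fgfr2*, *Fgfr3* and *Fgfr4* in the summed CPM per kb of the 4 receptor kinases, as a stacked bar per library. In the drug set the *Fgfr3* share goes from 6.62% on average with DMSO to 54.8% with IWR-1, and *Fgfr4* never passes 1.42%.

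Among the ligands, *Fgf7*, which encodes the keratinocyte growth factor that signals through the IIIb form of FGFR2, was the most abundant per kb in every library, taking 84.2% of the 4 in siCtrl and 98.7% with DMSO. It fell with both drugs. It stood at 83.6, 70.9 and 76.2 CPM per kb with DMSO, at 45.2, 26.4 and 47.8 with XAV939, and at 17.5, 16.6 and 20.8 with IWR-1. The groups did not overlap, and the log2 fold changes were -0.95 (SE 0.19, adjusted p = 0.00758) and -2.07 (SE 0.20, adjusted p = 2.70e-05). In siCtrl it stood at 11.6, 11.2 and 14.3 and in siTnks/2 at 7.69, 3.07 and 10.1. These groups did not overlap either, and siTnks/2 replicate 2 was the lowest. The log2 fold change of -0.83 (SE 0.37) did not pass (adjusted p = 0.162), and with the replicate block it was -0.94 (adjusted p = 0.0419). Without siTnks/2 replicate 2 it was -0.48 (adjusted p = 0.0579).

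*Fgf1*, the ligand that binds all the receptors, was counted at only 7 to 127 reads per library. It stood at 0.422, 0.446 and 0.408 CPM per kb in siCtrl and 0.575, 1.14 and 0.672 in siTnks/2. With DMSO it stood at 0.207, 0.183 and 0.221, with XAV939 at 0.176, 0.179 and 0.209, and with IWR-1 at 0.117, 0.0564 and 0.131. The siTnks/2 libraries lay above siCtrl and the IWR-1 libraries below DMSO, while XAV939 overlapped DMSO. It fell by 0.98 log2 units with IWR-1 (SE 0.30, adjusted p = 0.0250), a call lost with DESeq2 (adjusted p = 0.0519) and without DMSO replicate 1 or 3 or IWR-1 replicate 2 (adjusted p up to 0.0885). The change after knockdown, 0.90 (SE 0.28), did not pass the main test (adjusted p = 0.0632) and did with the block (adjusted p = 0.0281) and with DESeq2 (adjusted p = 0.0327). With XAV939 the 95% interval ran from -0.73 to 0.51.

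*Fgf18*, the anabolic ligand, was counted at 6 to 43 reads per library. It stood at 1.23, 1.36 and 1.16 CPM per kb in siCtrl and 1.15, 0.657 and 1.08 in siTnks/2. With DMSO it stood at 0.927, 0.375 and 0.376, with XAV939 at 0.199, 0.380 and 0.540, and with IWR-1 at 0.161, 0.296 and 0.160. DMSO replicate 1 was apart from the other DMSO libraries. It fell by 1.44 log2 units with IWR-1 (SE 0.51, adjusted p = 0.0462), lost with DESeq2 (adjusted p = 0.0538) and without DMSO replicate 1, XAV939 replicate 2 or any one IWR-1 library (adjusted p up to 0.224). After knockdown the 95% interval was -0.97 to 0.23 and with XAV939 -1.63 to 0.43.

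*Fgf2*, the basic FGF stored in cartilage matrix, gave no call in any comparison. It stood at 0.630, 0.606 and 0.630 CPM per kb in siCtrl and 0.476, 0.400 and 0.519 in siTnks/2. With DMSO it stood at 0.250, 0.151 and 0.510, with XAV939 at 0.135, 0.32 and 0.388, and with IWR-1 at 0.229, 0.269 and 0.354. The siRNA groups did not overlap (log2 fold change -0.42, SE 0.15, adjusted p = 0.0937), whereas the drug groups did. *Fgf2*, *Fgf7* and *Fgf1* each overlap another annotated coding gene on the opposite strand. The libraries were made with a stranded kit, but the strand setting of the counting is not stated, so reads of the overlapping genes may not be separated.

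**Figure D4:**
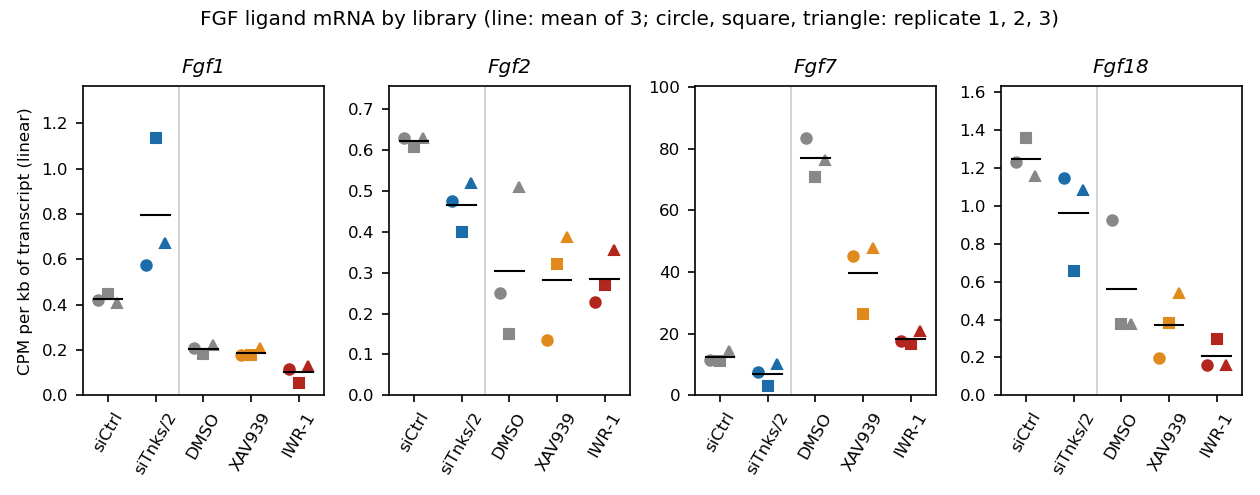
Level of each ligand mRNA in every library on linear axes in CPM per kb, with a line at the mean of 3 libraries and one marker shape per replicate number. *Fgf7* falls from 76.9 on average with DMSO to 18.3 with IWR-1, and no other ligand passes 1.36.

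Of the 9 genes, 2 passed the test after knockdown, where 18.0% of all 13672 tested genes did. Both were higher (10.4% of all genes) and 0 were lower (7.61%), with *Fgfr4* and *Fgf2* lower at an unadjusted p of 0.0358 and 0.0264 in edgeR. With XAV939 5 of 9 passed (17.4% of 13873 genes), 3 of them higher (7.57%) and 2 lower (9.85%). With IWR-1 7 of 9 passed (36.4%), 3 of them higher (16.2%) and 4 lower (20.2%). The medians of the 9 log2 changes were -0.10, -0.12 and -0.09, beside -0.0012, 0.016 and 0.0056 over all genes tested. The libraries of treated and control groups did not overlap for 3 higher and 4 lower genes after knockdown, where 21.6% and 22.2% of all genes did so, for 3 and 3 with XAV939 (16.4% and 16.8%), and for 3 and 4 with IWR-1 (24.7% and 26.4%). With replicate numbers as a block, 5 of 9 passed after knockdown, 3 higher and 2 lower. With XAV939 the block gave 3 higher and 3 lower, and with IWR-1 3 and 4. The share of all genes was not counted with the block, so the shares above do not apply to these counts. XAV939 and IWR-1 were compared with the same 3 DMSO libraries, so the 2 comparisons are not independent. *Fgfr2* and *Fgf2* were the 2 genes without a call in all 3 comparisons.

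**Figure D5:**
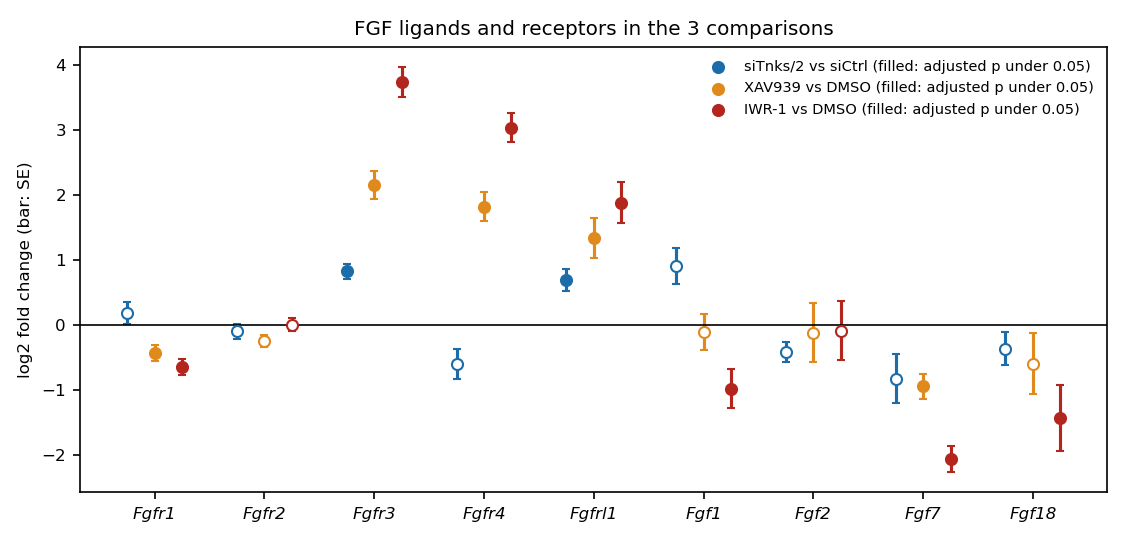
Log2 fold change of the 9 genes in the 3 comparisons, with bars for the standard error and filled points for an adjusted p under 0.05. *Fgfr3* is highest in each comparison but *Fgf1* after knockdown (0.90, open point).

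Setting the drugs side by side at the same 10 μM and 108 h, *Fgfr3* was 1.59 log2 units higher with IWR-1 than with XAV939 (SE 0.21, adjusted p = 0.000714), *Fgfr4* 1.22 higher (SE 0.20, adjusted p = 0.00200) and *Fgf7* 1.12 lower, at -1.12 (SE 0.20, adjusted p = 0.00317). This was 3 of 9 genes (17.6% of all 13873), 2 higher (7.37%) and 1 lower (10.2%). The other 6 did not pass, and for *Fgfr1* the 95% interval of the difference was -0.50 to 0.06. Leaving out 1 library added *Fgfrl1* without XAV939 replicate 2 (1.05, adjusted p = 0.00963) and *Fgfr2* without DMSO replicate 3 (0.26, adjusted p = 0.0408). With the block, *Fgfr2* (0.25, adjusted p = 0.0454), *Fgfrl1* (0.65, adjusted p = 0.00921) and *Fgf1* (-0.87, adjusted p = 0.0364) passed as well.

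Differences between a drug effect and the knockdown effect were tested as an interaction over all 15 libraries. Against the knockdown effect, the XAV939 effect was larger for *Fgfr3* by 1.32 log2 units (SE 0.27, adjusted p = 0.00566) and for *Fgfr4* by 2.40 (SE 0.33, adjusted p = 0.000476), 2 of 9 genes where 13.5% of 14271 passed. Both were higher (5.40% of all genes) and 0 lower (8.07%). With the block 4 of 9 passed, adding *Fgfr1* (-0.62, adjusted p = 0.00466) and *Fgf1* (-0.99, adjusted p = 0.0412). The IWR-1 effect differed for 6 of 9 (24.4% of genes), 3 higher (10.5%) and 3 lower (13.9%). It was larger for *Fgfr3* by 2.91, *Fgfr4* by 3.63 and *Fgfrl1* by 1.18, and lower for *Fgf1* at -1.90, *Fgf7* at -1.25 and *Fgfr1* at -0.84. The siRNA and drug cultures were treated in different ways and made as separate sets, so a difference between treatments and one between sets cannot be told apart.

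Most of the other FGF ligands, 18 genes, fell below the filter on low counts. Of them, 8 had 3 counts or fewer in all 15 libraries, and 5 were tested in the siRNA set and 6 in the drug set. *Fgf13*, which encodes a protein that stays inside the cell, fell in all 3 comparisons, at -0.69 (SE 0.14, adjusted p = 0.0212), -1.43 (SE 0.18, adjusted p = 0.000588) and -1.37 (SE 0.18, adjusted p = 0.000189). The first of these was lost without any one siCtrl library or siTnks/2 replicate 1 (adjusted p up to 0.0739). *Fgf11*, of the same intracellular kind, fell with both drugs, at -2.42 (SE 0.27, adjusted p = 0.000299) and -3.45 (SE 0.30, adjusted p = 1.41e-05). *Fgf21*, an endocrine FGF, rose by 1.93 with IWR-1 (SE 0.40, adjusted p = 0.00315). The tested genes had a median log2 fold change of -0.47 after knockdown, -0.44 with XAV939 and -1.45 with IWR-1. They gave 1, 2 and 5 calls, beside 18.0%, 17.4% and 36.4% of all genes. With the block they gave 2, 3 and 6, for which the share of all genes was not counted.

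Of the 19 co-receptors, binding proteins and heparan sulfate carriers, 6 rose and 3 fell of 16 tested after knockdown, 2 rose of 15 with XAV939, and 2 rose and 5 fell with IWR-1. Of all genes, 10.4% rose and 7.61% fell after knockdown, 7.57% rose with XAV939, and 16.2% rose and 20.2% fell with IWR-1. Leaving out 1 library left 3 to 8 calls after knockdown and 0 to 2 with XAV939. The medians of the log2 changes were 0.08, -0.09 and -0.31. *Sdc3*, a cell-surface heparan sulfate proteoglycan, rose in each comparison, by 0.85 (SE 0.11, adjusted p = 0.00662), 0.49 (SE 0.13, adjusted p = 0.0235) and 0.71 (SE 0.13, adjusted p = 0.00134). The XAV939 call was lost without DMSO replicate 1 or 2 or XAV939 replicate 2 or 3 (adjusted p up to 0.0841). *Sdc1* of the same family fell by 1.41 with IWR-1 (SE 0.11, adjusted p = 1.01e-05) but rose by 0.29 after knockdown (adjusted p = 0.0420) and gave no call with XAV939 (-0.09). *Agrn*, a matrix proteoglycan, rose by 0.56 after knockdown (SE 0.05, adjusted p = 0.00330). Among 18 tested heparan sulfate enzymes, *Extl1*, a chain-building glycosyltransferase, rose by 1.05, 1.77 and 2.46 (adjusted p = 0.00384, 0.00242 and 0.000107). *Sulf1*, which removes sulfate groups that FGFs need, fell by 0.89, 1.25 and 0.95 (adjusted p = 0.0155, 0.00131 and 0.00205). The first *Sulf1* call was lost without siTnks/2 replicate 1 (adjusted p = 0.0582). In all, 2 enzymes rose and 2 fell after knockdown, 1 and 2 with XAV939, and 2 and 4 with IWR-1, with medians of -0.0092, 0.0056 and -0.12. These are 4, 3 and 6 calls of 18, near the 18.0%, 17.4% and 36.4% of all genes. With the block the counts became 6 and 5 after knockdown and 1 and 4 with XAV939, and leaving out 1 library left 1 to 6 calls after knockdown.

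Of 25 genes of the receptor-proximal and RAS-ERK relay, all tested, 2 rose and 4 fell after knockdown, 1 rose and 4 fell with XAV939, and 3 rose and 4 fell with IWR-1, with medians of 0.0082, -0.21 and -0.20. With the block 3 rose and 8 fell with XAV939 and 5 rose and 9 fell with IWR-1, and leaving out 1 library left 2 to 7 calls after knockdown and with XAV939 and 4 to 10 with IWR-1 (fewest without IWR-1 replicate 2). That is 6, 5 and 7 calls of 25, beside 18.0%, 17.4% and 36.4% of all genes, and nothing particular to the list is read from these counts. *Map2k1*, which encodes the kinase MEK1, fell by 0.63 with XAV939 (SE 0.09, adjusted p = 0.00130) and by 0.65 with IWR-1 (SE 0.09, adjusted p = 0.000288). *Hras* and *Nras* fell after knockdown by 0.57 and 0.54 (adjusted p = 0.00581 and 0.00708).

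ERK-dependent feedback and target genes, which many growth factors induce, fell more often than they rose with the drugs. Of 24 tested, 3 fell after knockdown and 0 rose, 11 fell with XAV939 and 0 rose (0 rose at an unadjusted p under 0.05 as well, in both), and 17 fell and 1 rose with IWR-1. Of all genes, 7.61%, 9.85% and 20.2% fell in these comparisons. The list's medians were -0.20, -0.43 and -1.39. With the block 1 rose and 8 fell after knockdown, and leaving out 1 library left 0 to 3 calls there, 4 to 14 with XAV939 and 17 to 19 with IWR-1. The knockdown count was 0 without siTnks/2 replicate 1 or siCtrl replicate 2 or 3 and 1 without siCtrl replicate 1, and the XAV939 count was 4 without DMSO replicate 1 and 6 without XAV939 replicate 1 or 2. *Fosl1*, an AP-1 subunit, fell by 0.90 after knockdown (SE 0.22, adjusted p = 0.0361). It fell by 1.11 with XAV939 (SE 0.17, adjusted p = 0.00180) and 2.68 with IWR-1 (SE 0.18, adjusted p = 3.38e-06). *Egr1* fell by 0.60, 1.17 and 2.30 in the 3 comparisons (adjusted p = 0.030, 0.00319 and 1.95e-05). The first *Egr1* call was lost without siTnks/2 replicate 1 or siCtrl replicate 2 or 3 (adjusted p up to 0.0991). *Spred3*, a feedback inhibitor of RAS signalling, fell by 1.75 with IWR-1 (SE 0.15, adjusted p = 1.18e-05), and *Ier3*, an immediate-early gene, by 1.05 with XAV939 (SE 0.14, adjusted p = 0.000797). *Myc* fell by 0.75 after knockdown (SE 0.18, adjusted p = 0.0329) and rose by 0.58 with IWR-1 (SE 0.14, adjusted p = 0.00707), the former lost without any one siCtrl library or siTnks/2 replicate 1 (adjusted p up to 0.0900).

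Across the 15 libraries, with each set centred on its own mean, the log2 levels of *Mtus2*, *Slc1a5*, *Mall*, *Gramd2* and *Slc7a3* were most like those of *Fgfr3* (Pearson r 0.994, 0.991, 0.990, 0.988 and 0.987) among 13342 genes. Those of *Ppard*, *Plod1*, *Eno2*, *Fbxl17* and *Kcng2* were most like *Fgfr1* (0.955, 0.947, 0.933, 0.929 and 0.928). Within the FGF genes, r with *Fgfr3* was 0.939 for *Fgfrl1* (rank 171), 0.902 for *Fgfr4* (rank 372) and -0.889 for *Fgf7*, although the log2 change of *Fgfr4* after knockdown was -0.60 (adjusted p = 0.113), opposite in sign to that of *Fgfr3*. These describe libraries that share treatments and depth, and no test was made.

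In bulk RNA, fewer cells of a type and less RNA per cell cannot be told apart. Summed CPM of 12 chondrocyte markers, *Col2a1* and *Acan* among them, ranged from 87980 to 117600 in siCtrl, 125200 to 203300 in siTnks/2, 27730 to 37570 with DMSO, 38000 to 57730 with XAV939 and 91540 to 116600 with IWR-1, so it moved in the direction of *Fgfr3*. *Col2a1* made up most of these sums, at 68070 CPM on average in siCtrl and 23780 with DMSO. All 12 passed as higher with IWR-1 (16.2% of all genes), 3 with XAV939 (7.57%) and 4 after knockdown (10.4%). *Col2a1* was not called after knockdown or with XAV939 (adjusted p = 0.14 and 0.118), nor was *Sox9* (adjusted p = 0.68 and 0.0677). Summed CPM of 10 fibroblast and dedifferentiation markers ran from 15950 to 18130 with DMSO, 8395 to 11170 with XAV939 and 7318 to 10180 with IWR-1. In the drug set this was the direction of *Fgf7*. With IWR-1 6 of 10 passed as lower and 1 as higher (20.2% and 16.2% of all genes), and with XAV939 4 and 1 (9.85% and 7.57%). In the siRNA set the sums overlapped, at 6326 to 10230 in siCtrl and 4011 to 8874 in siTnks/2. After knockdown 0 passed as lower and 1 as higher (7.61% and 10.4%). The part of the chondrocyte and fibroblast markers in the FGF changes was not tested. Leukocyte markers summed to 4.51 to 15.9 CPM. *Ptprc* was at 0 counts in 6 libraries, whereas *Cd68* (63 to 323 counts) and *Lyz2* (48 to 169) were counted in every library. The leukocyte sums ran from 11.6 to 15.9 with DMSO and from 6.89 to 9.51 with IWR-1, without overlap. Of these markers 2 of 4 tested passed as lower with IWR-1. Osteoblast markers summed to 175 to 234 CPM in siCtrl, 224 to 338 in siTnks/2, 107 to 132 with DMSO, 134 to 149 with XAV939 and 118 to 149 with IWR-1. Of these markers 2 of 8 passed as higher after knockdown, 3 of 7 with XAV939 and 4 of 7 with IWR-1, and 0 as lower. The part of the leukocyte and osteoblast markers was not tested either. Muscle markers summed to at most 7.54 CPM and erythroid ones to at most 0.0357. Endothelial markers summed to at most 1.71 CPM in all libraries but siTnks/2 replicate 2, with 9.63. *Fgf7*, *Fgf1*, *Fgfr1* and *Fgfrl1* also stood apart there, and without it *Fgfr3* (0.81, adjusted p = 0.00529) and *Fgfrl1* (0.49, adjusted p = 0.0280) still passed after knockdown. Library totals ran from 26857070 to 36615194 counts.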

How the data were processed

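The deposited values are raw counts of reads per Entrez gene, made by the authors from stranded mRNA libraries with Trimmomatic 0.32, TopHat2 2.0.13 (mm10) and HTSeq 0.6.1p1; the annotation and strand setting are not stated. These counts entered edgeR 4.0.16 under R 4.3.3 (TMM, filterByExpr, quasi-likelihood F test, prior count of 2), 1 model per table with no covariate, and adjusted over all genes tested (Benjamini-Hochberg). A gene is called at an adjusted p under 0.05. Shares of all genes called come from these fits and were not counted with a replicate block. The members were named by a rule, and pathway genes by the 2 smallest adjusted p in each direction of each list; the members and lists were chosen with earlier results of these data known. The ratio was tested by an exact permutation test, and by a sign-flip test over same-numbered pairs. Alternatives were other scalings, filters, DESeq2 1.42.0, leaving out each library and a replicate block. Each same-numbered pair of libraries deviated together (correlation 0.424 to 0.519 over 3 pairs of the siRNA set, 0.143 to 0.553 over 9 of the drug set). Pairs with different numbers gave -0.409 to 0.0972 in the siRNA set and -0.489 to 0.318 in the drug set. The ranges thus overlapped in the drug set. The numbers were taken to pair the libraries in both sets. The main fits hold no term for this pairing, so their SEs and adjusted p include the spread between replicate numbers. For *Fgfrl1* after knockdown the SE was 0.18 in the main fit and 0.064 with the block. A gene without a call in the main fits may therefore pass with the block. Library totals were 26857070 to 36615194 counts. Exon-union lengths were added after seeing the data. Of 24134 gene IDs, 24051 matched a symbol. A gene of the relay list is counted but not reported by name here.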

Additional observations from a re-analysis of the deposited data

Results flagged for a closer look

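In all, 11 differences between treatment effects passed the test of the difference itself, and the cause of none was tested. Between the 2 drugs, *Fgfr3* differed by 1.59 and *Fgfr4* by 1.22 log2 units, higher with IWR-1, and *Fgf7* by -1.12. Between the XAV939 effect and the knockdown effect, *Fgfr3* differed by 1.32 and *Fgfr4* by 2.40. Between the IWR-1 effect and the knockdown effect, *Fgfr3* differed by 2.91, *Fgfr4* by 3.63, *Fgfrl1* by 1.18, *Fgfr1* by -0.84, *Fgf1* by -1.90 and *Fgf7* by -1.25. *Fgfrl1* and *Fgf7* in this last contrast were lost in 10 of 15 fits that left out a library (adjusted p up to 0.118 and 0.132), the 5 exceptions being siTnks/2 replicate 2, DMSO replicate 2 and the XAV939 libraries.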

How the results depend on the processing

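With replicate numbers as a block, 5 genes passed after knockdown (2 without it), 6 between the drugs (3 without it) and 4 in the difference between the XAV939 and knockdown effects (2 without it); beyond the calls given with the results, the block changed no other call of a member. Leaving out 1 library left 1 to 2 genes after knockdown and 3 to 5 with XAV939. *Fgfr2* with IWR-1 lay so near 0 that its sign turned: -0.0046 with RLE size factors, -0.012 without a filter, -0.0032 with at least 10 counts, -0.0034 with DESeq2 and -0.00048 with only the groups compared, and -0.053 to 0.088 leaving out libraries. Leaving out libraries also turned uncalled changes: *Fgfr1* after knockdown (-0.013 to 0.30), *Fgf2* with XAV939 (-0.46 to 0.46), with IWR-1 (-0.42 to 0.50) and between drugs (-0.32 to 0.35), *Tnks* with IWR-1 (-0.51 to 0.47), and, against the knockdown effect, *Fgf2* (-0.044 to 0.88 for XAV939, -0.035 to 0.92 for IWR-1), *Fgf7* (-0.49 to 0.24), *Fgf18* (-0.63 to 0.33) and *Fgfr2* (-0.0061 to 0.19). *Fgfr1* with XAV939 passed with the block (adjusted p = 0.00594) but not with upper-quartile scaling (adjusted p = 0.0597) or with only the 2 groups (adjusted p = 0.0910). The cause was not tested. The receptor shares moved by more than the spread between libraries in 17 of 20 cases with exon-union lengths. Counts of at most 127 reads limit *Fgf1*, *Fgf2* and *Fgf18*.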
